A study of Mus musculus with 54 samples.

Results

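EMD-/y H2K myogenic progenitors, which lack emerin, were compared with wildtype H2K progenitors 24 h after the switch to differentiation medium (day 1). All genes listed for this pair of groups were taken, 17711 of the 19192 genes found in any of the 11 tables used here. The study sequenced poly-A RNA from 54 samples, in 18 groups of 3 labelled replicates, over 6 lines at 0, 24 and 48 h of differentiation. Apart from wildtype and EMD-/y, the lines were made by lentiviral transduction of the EMD-/y line. Of these transduced lines, +EMD received wildtype emerin. Each of the rest received an emerin mutant that causes Emery-Dreifuss muscular dystrophy, after which it is named. H2K progenitors are conditionally immortal mouse myoblasts that proliferate in the presence of γ-interferon and fuse into myotubes once it is withdrawn in low horse serum. The wildtype and the EMD-/y line were each isolated from their own mice and neither was transduced. Each genotype is represented by 1 line as labelled, and whatever else differs between these lines cannot be told apart from the loss of emerin. The labels speak of technical replicates of 2 biological replicates, and which of the 3 libraries of a group came from separate cultures was not given.

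Emerin is a LEM-domain protein of the inner nuclear membrane that binds lamins, barrier-to-autointegration factor and the histone deacetylase HDAC3. Its loss causes X-linked Emery-Dreifuss muscular dystrophy, in which muscles waste and the heart conducts poorly. Myogenic progenitors express the bHLH factors Myod1 and Myf5 while they divide, switch on Myog and the cyclin-dependent kinase inhibitors as they leave the cell cycle, then make sarcomere proteins and fuse. Day 1 is the time at which wildtype progenitors leave the cell cycle.

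The table holds 1 normalised count per gene and group and no values per library, so no spread between replicates was available and no test was run. Totals were about 18100000 normalised counts for wildtype and 18200000 for EMD-/y, and the size factors of the 6 libraries lay between 0.97 and 1.05. The values of a group are not plain means. Genes with a single read in 1 of the 6 libraries showed that the average of both values is the mean over all libraries, which is then split by a fitted ratio that is pulled towards 1 when reads are few. Ratios at low levels therefore tend to be too small, and no gene is listed at 0. The same wildtype day 1 group stands in 6 other tables, whose median differed by at least 1.5-fold for 63 of 13394 genes, and the same EMD-/y group in 2 other tables, where 92 of 13377 genes did. Of the former, 44 were among the 618 genes counted as higher in EMD-/y, and of the latter 71 were among 360 of the genes counted as lower. Differences below are given as log2 ratios of EMD-/y to wildtype with a pseudocount of 1, so that a negative value is lower in EMD-/y, and a gene was counted as different when the ratio was at least 2-fold and the higher group reached 10 normalised counts.

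Of 13394 genes that reached 10 normalised counts in the higher group, 618 (4.61%) were at least 2-fold higher in EMD-/y and 376 (2.81%) at least 2-fold lower, together 994 (7.42%). The median log2 ratio over the 13394 genes was -0.005, and 85.1% of them differed by less than 1.5-fold. The 994 genes held 1.96% of all normalised counts in wildtype and 2.52% in EMD-/y. Most were scarce transcripts: 20.4% of genes between 10 and 100 normalised counts differed by 2-fold, against 2.10% of those between 1000 and 10000. Above 10000 normalised counts, 7 of 234 genes were higher and 1 was lower. Predicted genes without a symbol made up 771 of the genes measured, and 62 of these were higher and 147 lower, compared with 556 higher and 229 lower among 12623 annotated genes.

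**Figure D1:**
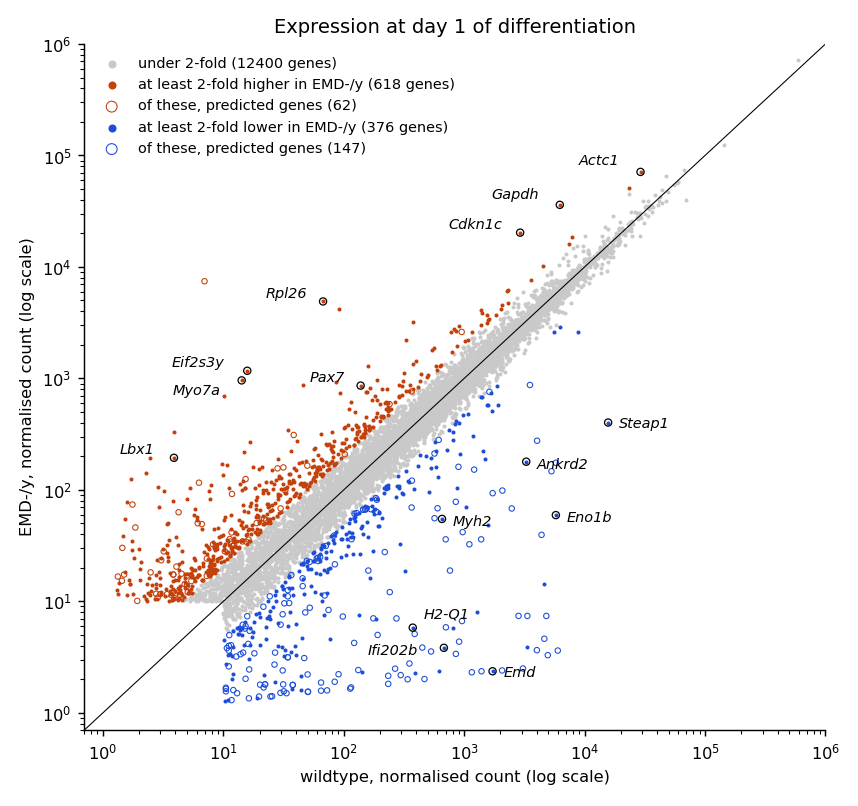
Normalised count of each gene at day 1 in wildtype (x axis, log scale) and EMD-/y (y axis, log scale), for the 13394 genes that reached 10 in the higher group. Colours mark the 618 genes at least 2-fold higher and the 376 at least 2-fold lower, open circles are predicted genes, and Emd lies far below the line of equality.

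Emd itself set wildtype apart from EMD-/y, but could not tell EMD-/y from the transduced lines, where its row was also low. It was listed at 1720 normalised counts in wildtype and 2.36 in EMD-/y, a log2 ratio of -9.00, and the log2 ratio was -8.75 at day 0 and -8.20 at day 2. Emd lies at chrX:74254674-74261563 in GRCm38.p6. None of the other 21 envelope genes measured differed by 2-fold. Among the lamins, Lmna was at 19541 and 17212 normalised counts in wildtype and EMD-/y, Lmnb2 at 2889 and 2568, and Lmnb1 at 1128 and 1583, the last with a log2 ratio of 0.49. The 5 other LEM-domain genes measured, which include Tmpo and Lemd3, lay between -0.12 and 0.06. Banf1, which encodes barrier-to-autointegration factor, was at 1101 and 1319. The SUN and nesprin genes of the LINC complex, which joins the nucleus to the cytoskeleton, ranged from -0.19 to 0.34. Hdac3 was at 1623 and 1577, and none of the 17 genes for deacetylases, NCoR complex subunits and the emerin partner Gmcl1 differed by 2-fold.

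Both lines carried the myogenic programme at day 1. All 11 myogenic markers were measured, and 10 of them lay within 2-fold. Myog, the bHLH factor that starts terminal differentiation, was at 36042 normalised counts in wildtype and 30794 in EMD-/y, and Myod1 was at 16855 and 13434. Measured within each line, Myog went from 7645 at day 0 to 36642 at day 1 in wildtype (4.79-fold) and from 11797 to 31229 in EMD-/y (2.65-fold). Day 0 values thus differed before the medium was changed, with Myog at 7821 in wildtype and 11971 in EMD-/y. Myf5 was at 223 and 416 (log2 ratio 0.90), and Myf6, at 7.73 and 17.3, was the only bHLH factor past 2-fold, with a log2 ratio of 1.07 that became 0.81 with a pseudocount of 5. No Mef2 factor was, with Mef2a at 17261 and 13904 and Mef2c at 3978 and 6271.

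Pax7, the transcription factor of satellite cells and undifferentiated progenitors, was at 138 normalised counts in wildtype and 862 in EMD-/y at day 1, a log2 ratio of 2.64. At day 0 it was at 382 and 884, and at day 2 at 50.3 and 317. In wildtype it went from 361 to 137 between days 0 and 1, whereas in EMD-/y it stayed at 868 and 883. Its relative Pax3 was at 220 and 243. The homeobox gene Six2 was at 9.70 and 169 (log2 ratio 3.99), while Six4, which acts upstream of the bHLH factors, was at 1091 and 852. Of the inhibitors of bHLH factors, Id2 was at 373 and 799, Id4 at 12.3 and 27.0 and Mdfi at 2.77 and 13.3. With a pseudocount of 5 the log2 ratio of Id4 was 0.89. Altogether 6 of 25 myogenic regulators were at least 2-fold higher and 0 lower, against 4.61% and 2.81% of all genes, and their median was 0.08.

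**Figure D2:**
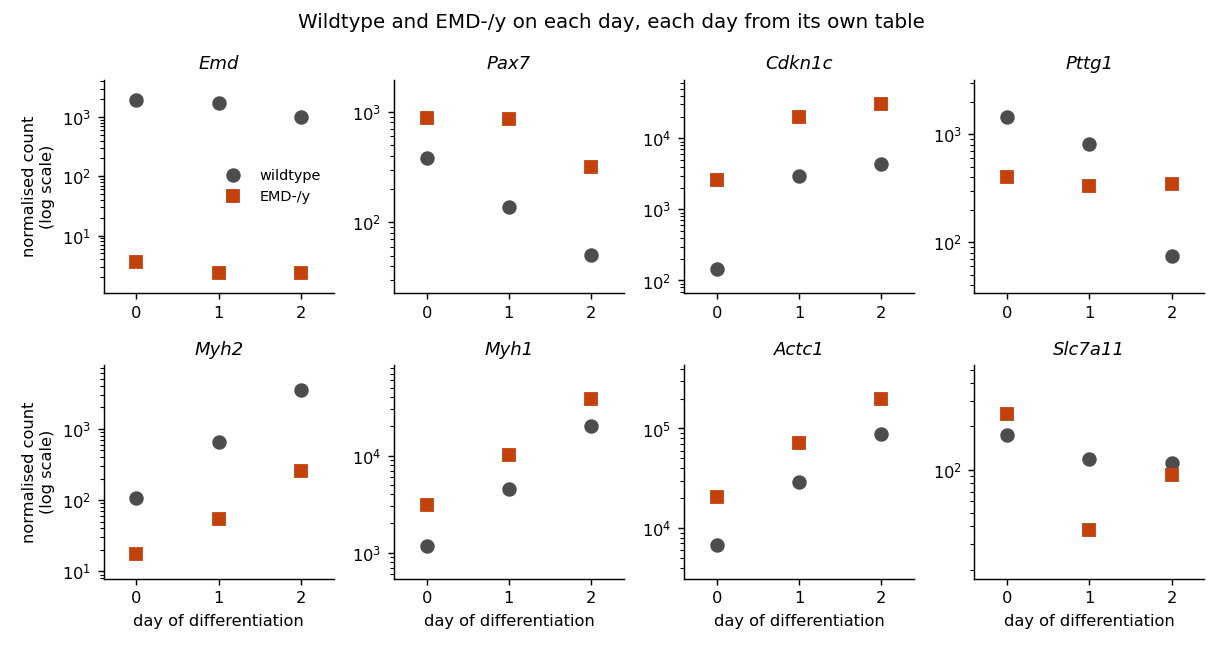
Normalised counts (log scale) of 8 genes in wildtype (circles) and EMD-/y (squares) at days 0, 1 and 2, 1 value per group, each day from its own table. Pax7 kept close to its day 0 level in EMD-/y at day 1, Pttg1 was lower in EMD-/y at days 0 and 1 and higher at day 2, and Slc7a11 stood apart at day 1.

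Markers of other cell types were sought because fewer cells of a type and less RNA per cell cannot be told apart in bulk RNA. Ptprc, the pan-leukocyte gene, was at 0.163 and 0.178 normalised counts and Pecam1, of endothelium, at 8.58 and 7.55. Summed over the 9 fibroblast and fibro-adipogenic markers listed, wildtype had 33407 normalised counts and EMD-/y 43989, mostly from collagens, while Pdgfra was at 23.9 and 17.3, Dcn at 13.4 and 15.8 and Lum at 0.293 and 0.382. Of the 6 fibroblast markers measured, Dpt (dermatopontin, a matrix protein) was the one past 2-fold and was lower, at 14.4 and 5.79, though its log2 ratio was -0.84 with a pseudocount of 5. Smooth muscle and pericyte markers stood out, with 4 of 8 at least 2-fold higher, against 4.61% of all genes, and a median of 0.92. These were Cspg4 at 114 and 615, the potassium channel subunit Abcc9 at 110 and 529, Cnn1 at 45.7 and 109 and Rgs5 at 18.6 and 73.8. The most abundant markers on that list, Acta2 at 58763 and 56970 and Notch3 at 4639 and 4083, differed little, and Myh11, which defines smooth muscle, was at 8.26 in wildtype with a log2 ratio of 0.60. Summed, the list gave 66433 and 65262. Their part in the other differences was not tested.

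Sarcomere genes were abundant in both lines at day 1. Of 49 measured, 6 were at least 2-fold higher in EMD-/y and 2 lower, against 4.61% and 2.81% of all genes, with a median log2 ratio of 0.18. The myosin heavy chains differed among themselves. Myh3, the embryonic chain, was at 67069 and 74735 normalised counts in wildtype and EMD-/y, and the perinatal chain Myh8 at 8002 and 14934 (log2 ratio 0.90). Myh1, the fast 2X chain, was at 4519 and 10193 (1.17) and Myh7, the slow chain, at 1548 and 3713 (1.26). Myh2, the fast 2A chain that neighbours Myh1 on chromosome 11, went the other way, with 654 in wildtype and 54.9 in EMD-/y (-3.55). Per kilobase of transcript, Myh3 gave 11067 and 12333 normalised counts, Myh1 741 and 1672, Myh7 256 and 615, and Myh2 108 and 9.02. The order of these chains, with Myh8 at 1298 and 2422, was the same in both lines except for Myh2, which passed below Myh4 (15.4 and 26.9 per kilobase) in EMD-/y.

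Myh2 differed at each day. It was at 107 and 17.3 normalised counts at day 0 and at 3519 and 259 at day 2. Within wildtype it went from 116 to 686 between days 0 and 1, and within EMD-/y from 11.9 to 28.4. Myh1 and Myh7 stood higher in EMD-/y at day 0 as well (log2 ratios 1.40 and 1.52) and lay at 0.95 and 0.99 at day 2.

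Actc1, the cardiac α-actin of developing muscle, was the third most abundant transcript per kilobase in EMD-/y. It was at 29113 normalised counts in wildtype and 71207 in EMD-/y (log2 ratio 1.29), and the log2 ratio was 1.58 at day 0 and 1.15 at day 2. The skeletal α-actin Acta1 did not share this, at 60042 and 57306. Mylk2, the kinase of the regulatory light chain, was lower at 109 and 31.3. Higher Z-disc and filament genes were Xirp2 (log2 ratio 2.73), Myot (myotilin) at 54.2 and 159 and Mybpc2 at 5.80 and 19.3. None of the 7 troponin genes differed by 2-fold, their range being -0.10 to 0.59, with the fast troponin T gene Tnnt3 at 14128 and 13526.

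The start-site regions of 4 contractile genes are shown, the myosin heavy chain genes past 2-fold and Actc1, because 3 were higher and the fourth lower in the same cells. RefSeq promoters on GRCm38.p6 are windows of 300 bases that end shortly after the start site, printed 5′ to 3′ on the gene's strand. Capitals mark E-boxes (CANNTG, the letters that bHLH factors bind), MEF2 letters and CArG boxes (bound by serum response factor), searched on both strands and with any overlap merged.
Myh2 promoter, chr11:67170777-67171076, plus strand: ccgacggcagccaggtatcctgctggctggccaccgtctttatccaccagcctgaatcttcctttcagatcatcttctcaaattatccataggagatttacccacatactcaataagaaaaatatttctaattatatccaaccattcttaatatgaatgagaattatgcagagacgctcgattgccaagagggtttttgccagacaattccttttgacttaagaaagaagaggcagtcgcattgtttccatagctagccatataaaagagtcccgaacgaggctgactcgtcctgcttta
Myh1 promoter, chr11:67199852-67200151, plus strand: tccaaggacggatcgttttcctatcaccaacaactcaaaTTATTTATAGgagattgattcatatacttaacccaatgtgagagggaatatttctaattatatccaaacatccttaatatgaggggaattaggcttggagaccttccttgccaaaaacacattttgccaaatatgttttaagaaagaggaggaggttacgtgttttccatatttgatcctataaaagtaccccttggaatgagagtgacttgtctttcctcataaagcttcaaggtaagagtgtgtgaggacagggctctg
Myh7 promoter, chr14:54994577-54994876, minus strand: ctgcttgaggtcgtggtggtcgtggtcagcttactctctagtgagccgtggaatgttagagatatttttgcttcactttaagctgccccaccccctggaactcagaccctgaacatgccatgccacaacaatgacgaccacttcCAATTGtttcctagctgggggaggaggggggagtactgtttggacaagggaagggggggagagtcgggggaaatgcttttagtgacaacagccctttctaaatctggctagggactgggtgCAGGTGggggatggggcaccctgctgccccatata
Actc1 promoter, chr2:114052826-114053125, minus strand: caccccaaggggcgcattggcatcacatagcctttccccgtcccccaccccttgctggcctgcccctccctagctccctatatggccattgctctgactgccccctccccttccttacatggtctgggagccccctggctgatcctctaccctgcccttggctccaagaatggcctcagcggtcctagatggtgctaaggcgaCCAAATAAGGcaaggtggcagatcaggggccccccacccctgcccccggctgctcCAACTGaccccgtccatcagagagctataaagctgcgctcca
The Myh2 window held 0 matches to the motifs searched and the Myh1 window 1, to MEF2. The Myh7 window held 2 E-boxes and the Actc1 window 1 E-box and 1 CArG box. Of 32851 promoter windows of this length, 72.3% held an E-box, 3.19% a MEF2 match and 1.63% a CArG box. These are matches of letters and no measurement of binding.

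Genes of fusion and excitation were close to equal. None of 21 fusion and membrane genes differed by 2-fold (median -0.04), and the fusogens Mymk and Mymx were at 16208 and 15173 and at 772 and 1125. Of 22 excitation and calcium genes, Casq1, the calcium-binding protein of the fast sarcoplasmic reticulum, was at 223 and 533, and the calcium buffer Pvalb at 3.44 and 22.8. Lrp4, the agrin receptor of the neuromuscular synapse, was lower at 6237 and 2899. In the dystrophin-glycoprotein complex, Dmd, which encodes dystrophin, was at 40.4 and 93.3, and the median of the 15 genes measured was -0.03. Among 16 genes of muscle metabolism the higher ones were Ldhb at 355 and 865, the fatty acid carrier Fabp3 at 231 and 474 and the mitochondrial creatine kinase Ckmt2 at 4.33 and 13.8.

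The medians of the contractile lists lay closer to 0 at later days. Sarcomere genes had a median log2 ratio of 0.80 at day 0, 0.18 at day 1 and 0.07 at day 2. Muscle metabolism went 0.61, 0.10 and 0.01, and excitation and calcium genes 0.52, 0.03 and 0.00. The medians over all genes were 0.00, -0.01 and 0.00. Cell cycle genes were close to equal at day 1, and those of mitosis were apart at day 2. None of 12 cyclins and kinases, 24 replication genes and 10 E2F and DP factors differed by 2-fold at day 1, and the median of 30 mitosis genes was -0.19 at day 0, 0.04 at day 1 and 1.22 at day 2. At day 2, 19 of the 30 mitosis genes were at least 2-fold higher in EMD-/y, against 4.77% of all genes at that day. The day 2 median was 0.86 for cyclins and kinases, 0.3 for replication genes and -0.22 for E2F and DP factors. Mki67, the proliferation antigen, was at 4200 and 4269 normalised counts at day 1 and at 68.4 and 348 at day 2. The mitotic kinase Plk1 was at 1261 and 1431 at day 1 and at 45.8 and 138 at day 2. Between days 0 and 1, Mki67 went from 10348 to 4290 in wildtype and from 7366 to 4363 in EMD-/y. Values on different days come from tables that were normalised separately.

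**Figure D3:**
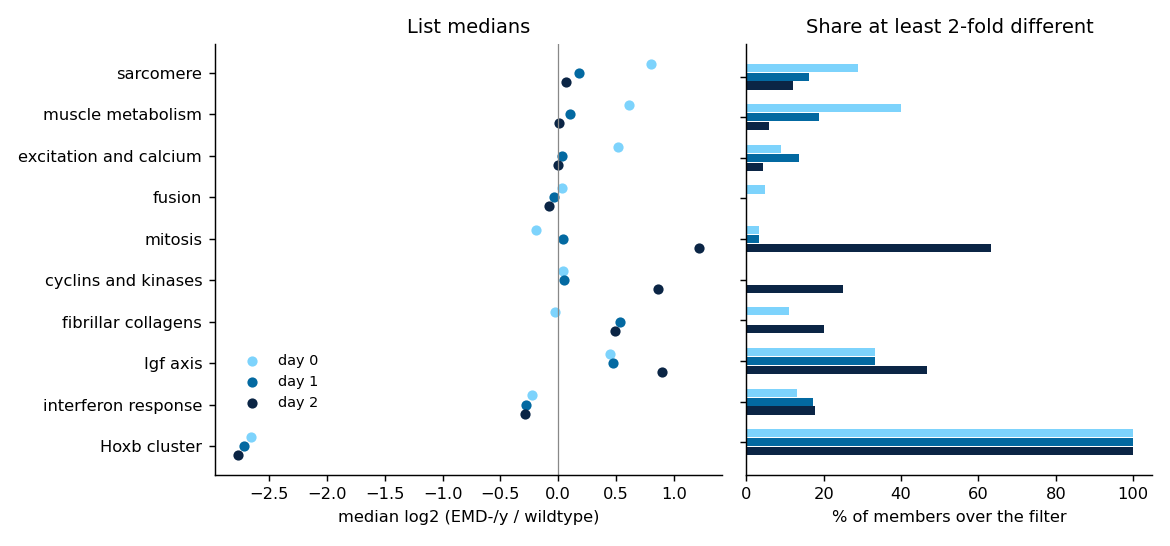
Left, median log2 ratio of EMD-/y to wildtype for 10 gene lists at days 0, 1 and 2. Right, share of members over the filter that differed by at least 2-fold; the sarcomere median lay at 0.80, 0.18 and 0.07 on the 3 days and the mitosis median at -0.19, 0.04 and 1.22.

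2 regulators of division did differ at day 1. Cdkn1c, the imprinted inhibitor p57 that holds differentiating myoblasts out of the cycle, was at 2915 normalised counts in wildtype and 20311 in EMD-/y (log2 ratio 2.80). It was at 146 and 2612 at day 0 and at 4422 and 30397 at day 2. The other inhibitors were close, with Cdkn1a (p21) at 41701 and 39381 and Cdkn1b (p27) at 1073 and 932. Pttg1, the securin that guards sister chromatids until anaphase, was lower at 813 and 333 (-1.29). It was lower at day 0 too, at 1455 and 401, but higher at day 2, at 74.4 and 343. The EMD-/y values of the 3 days thus lay between 333 and 401, and the wildtype values between 74.4 and 1455. Of 20 p53 pathway genes only Perp was past 2-fold, at 34.0 and 77.8.

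Collagen genes were more often higher than lower, with 24 of 33 above 0 and a median of 0.47, against 0.03 at day 0 and 0.42 at day 2. The 11 fibrillar collagen genes had a median of 0.53 with none past 2-fold, and the most abundant were Col1a2 at 36024 and 34505, Col5a2 at 28644 and 18951 (log2 ratio -0.60) and Col3a1 at 22846 and 24395. Col1a1 was at 10088 and 19131, a log2 ratio of 0.92, which was 1.15 with the values that other tables give for the same groups. Among 9 genes for collagen VI and fibril-associated collagens, Col6a3 was at 399 and 1429, Col16a1 at 163 and 342 and Col14a1 at 6.09 and 53.8. Col10a1 (106 and 36.2) and Col23a1 (135 and 61.7) were lower and Col13a1 (16.5 and 35.0) higher. The log2 ratio of Col13a1 was 0.90 with a pseudocount of 5, and that of Col23a1 was -0.92 with values from the day 1 against day 2 tables. The matricellular proteins Sparc (23242 and 50585), Tnc (2042 and 4543) and Postn (582 and 1303) were each a little over 2-fold higher, with 17 such genes measured and a median of 0.44. Cspg4, the NG2 proteoglycan already given as a pericyte marker, was higher and the collagen-binding Fmod lower at 96.9 and 36.4. The crosslinking enzyme Loxl1 was at 774 and 2599, and all 5 lysyl oxidase genes had ratios above 0. Adamts9, a protease of proteoglycans, was at 16.9 and 40.5. The integrin subunits Itga9 (26.2 and 113) and Itga8 (8.25 and 23.8) were higher, and none of 11 laminin and nidogen genes or 7 integrin beta subunits differed by 2-fold. Over all collagens, 4 of 33 were at least 2-fold higher and 2 lower at day 1, against 4.61% and 2.81% of all genes.

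**Figure D4:**
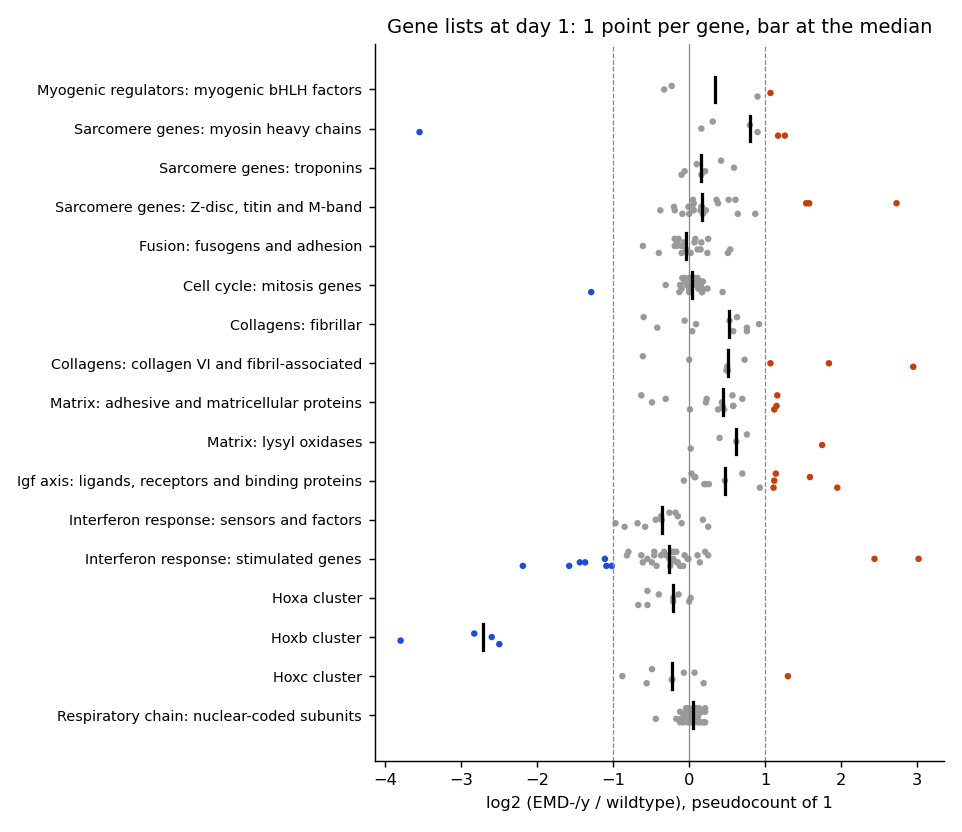
Log2 ratio of EMD-/y to wildtype at day 1 (x axis) for genes of 17 lists, 1 point per gene that reached 10 normalised counts and a bar at the list's median. Dashed lines mark 2-fold; all 4 Hoxb genes lie left of -2 and 5 Igf axis genes right of 1.

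The insulin-like growth factor (Igf) axis controls myoblast growth and survival, and 5 of its 15 genes were at least 2-fold higher with 0 lower, against 4.61% and 2.81% of all genes. The binding proteins Igfbp5 (7380 and 15964), Igfbp3 (1375 and 4143), Igfbp2 (1392 and 3028) and Igfbp4 (204 and 451), which hold the ligands outside the cell, were among them. Igf2bp3, an RNA-binding protein of Igf2 mRNA, was at 207 and 801. The log2 ratio of Igfbp4 was 0.99 with values from the day 0 against day 1 tables. The ligand Igf2 itself was at 47261 and 65602 and the receptor Igf1r at 2067 and 2400. The median of the list was 0.47 at day 1, 0.45 at day 0 and 0.90 at day 2.

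Other signalling lists had scattered members. In the Wnt list, the ligand Wnt10a (191 and 47.4), the receptor Fzd1 (1552 and 577) and the antagonist Sfrp2 (529 and 157) were lower. Wnt5b (7.65 and 20.6) and the receptor Fzd4 (62.8 and 162) were higher, as was the transcription factor Lef1 (151 and 323), while the feedback inhibitor Nkd2 was lower at 28.6 and 3.99. In the TGF-beta and BMP list, Bmp4 was lower at 57.6 and 12.2. Higher members were Mstn, the myostatin that limits muscle mass (52.6 and 116), Gdf5 (8.77 and 31.8), the co-receptor Eng (40.6 and 272) and the antagonist Grem1 (147 and 298). Of the growth factors, Hgf, which activates satellite cells, was lower at 752 and 344, Fgf10 was lower at 11.8 and 3.23, and the receptor Flt1 was higher at 4.35 and 12.7, with a log2 ratio of 0.92 at a pseudocount of 5. The Hippo list held Wwc1, the upstream scaffold KIBRA, at 34.3 and 344 (log2 ratio 3.29) and the TEAD cofactor Vgll2, active in skeletal muscle, at 151 and 364, with the targets Crim1 (350 and 766) and Rbms3 (430 and 954). None of the other 35 Hippo genes differed by 2-fold, nor did any of 12 Notch genes, 24 ERK response genes or, apart from Cnn1, 18 targets and factors of SRF and MRTF.

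Of 39 interferon-stimulated genes, 7 were at least 2-fold lower in EMD-/y and 2 higher, against 2.81% and 4.61% of all genes, 6 lay above 0 and the median was -0.26. The median was -0.24 at day 0. The lower ones were Ifi203 (604 and 131), Ifi204 (1584 and 583), Gbp5 (578 and 223), Ifi44 (156 and 51.8), Oas1a (121 and 56.3), Ifit3b (96.0 and 46.8) and the chemokine Cxcl9 (30.8 and 13.8). Ifi205 was higher at 1.33 and 11.6, as was Irgm2, an interferon-inducible GTPase, at 159 and 1295. With a pseudocount of 5 the log2 ratios of Ifit3b and Cxcl9 were -0.96 and -0.93, and Cxcl9 was at -0.94 with the values that other tables give for the same groups. For Irgm2 the wildtype value is uncertain. In 6 other tables the same wildtype day 1 group was at 1.20 to 5.26 normalised counts, and in 2 other tables the EMD-/y group was at 1768 to 1928. None of 13 sensors and factors differed by 2-fold, with a median of -0.36. Among class I genes, the non-classical H2-Q1 (374 and 5.81) and H2-T10 (1431 and 225) were lower, while the classical H2-K1 was at 17179 and 12303, H2-D1 at 18784 and 16307 and the light chain B2m at 27663 and 30236. In the list of cytokines and chemokines, Ccl5 (27.0 and 11.5) and the receptor Cxcr4 (840 and 386) were lower and Lif (100 and 263) and Tnfrsf11b, the decoy receptor osteoprotegerin (3.52 and 35.6), higher. With a pseudocount of 5 the log2 ratio of Ccl5 was -0.96.

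Housekeeping lists held few genes past 2-fold. Gapdh was at 6221 and 36064 normalised counts (log2 ratio 2.54), while the other 27 genes for hypoxia and glycolysis measured stayed within 2-fold. Gapdh was at 1521 and 7010 at day 0 and at 2240 and 9114 at day 2. Of 81 ribosomal protein genes, Rpl26 was at 67.3 and 4902, Rpl29 at 3598 and 7687 and Rpl10 at 1585 and 3342, and the median was 0.10. None of 42 respiratory chain genes and 31 sterol and fatty acid genes passed 2-fold. Of 20 NRF2 targets, Gsr (glutathione reductase) was higher at 285 and 878, and Slc7a11, the cystine importer that feeds glutathione synthesis, lower at 119 and 37.9. Slc7a11 stood at 173 and 243 at day 0 and at 111 and 92.2 at day 2, so that the day 1 difference was flanked by ratios of 0.49 and -0.27. Atf3 (22.2 and 50.8) and Vldlr (55.5 and 126) were higher in the ATF4 list, and so were the histone genes H2bc21 (20.2 and 66.3) and H2bc12 (6.06 and 16.4), which carry poly-A less often than most transcripts.

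Hox and other positional genes are known to keep, in cultured cells, a pattern set by the body region of origin. All 4 Hoxb genes that reached the filter were lower in EMD-/y, with Hoxb2 at 39.9 and 6.21, Hoxb3 at 77.0 and 4.62, Hoxb4 at 65.9 and 10.1 and Hoxb7 at 21.6 and 2.17. Their median was -2.72, and it was -2.66 at day 0 and -2.77 at day 2. None of 9 Hoxa genes differed by 2-fold (median -0.21), and of 9 Hoxc genes Hoxc8 was higher at 15.8 and 40.4. Among 28 other positional factors, 5 were higher and 0 lower, against 4.61% and 2.81% of all genes. Lbx1, a factor of limb muscle precursors, was at 3.89 and 194 (log2 ratio 5.32), Meis2, a Hox cofactor, at 189 and 969, Tbx1, of branchial arch muscle, at 64.7 and 315, the hindlimb gene Tbx4 at 18.9 and 59.4 and Irx1 at 5.47 and 17.4. The muscles from which the lines were taken were not given in the sources used here.

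The largest differences among named genes with at least 100 normalised counts in the higher group included many outside these lists. The 15 lowest were Emd, Hmga1b, Ifi202b, Eno1b, H2-Q1, Gbp2b, Steap1, Eif3j2, Tcfl5, Ankrd2, Cass4, Cd84, Efemp1, Myh2 and Sgsm1. Steap1, a membrane protein of a metalloreductase family, was at 15672 normalised counts in wildtype and 402 in EMD-/y (log2 ratio -5.28). It was the one gene above 10000 that was lower. Ankrd2, a stretch-responsive ankyrin repeat protein of muscle, was at 3274 and 179 at day 1, 178 and 8.83 at day 0 and 10550 and 512 at day 2, so its log2 ratio stayed between -4.36 and -4.19. Efemp1 (fibulin-3), a matrix glycoprotein, was at 1039 and 70.0. The interferon-inducible Ifi202b (678 and 3.83) and Gbp2b (143 and 2.33) were lower as well. With the values that other tables give for the same groups, Emd, Ifi202b, Gbp2b and H2-Q1 were lower still, at log2 ratios of -10.21, -8.77, -6.94 and -6.60.

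The 15 highest were Rpl26, Eif2s3y, Ptprm, Myo7a, Ifi211, Aff2, Cldn34c1, Kpna2, Zfp729b, Lbx1, Srrm4, Myo18b, Folr1, Six2 and Adcy1. Eif2s3y, a Y-linked translation factor, was at 15.8 and 1171, whereas the Y-linked Ddx3y was at 1585 and 1499 and Uty at 692 and 560. The receptor phosphatase Ptprm was at 3.87 and 328, the unconventional myosin Myo7a at 14.2 and 960, and Ifi211, of the same gene family as Ifi202b, at 10.2 and 702. Myo18b, a myosin needed to build sarcomeres, was at 45.6 and 876, and the adenylyl cyclase Adcy1 at 16.5 and 268. Beyond these 30 genes, 52 genes without an assigned name were lower than the least extreme of the 15 lowest and 2 were higher than the least extreme of the 15 highest.

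Some of these genes have near-identical copies between which reads can be split, and their values are uncertain. Eno1b shares 1652 bases with the glycolytic enzyme Eno1 and was at 5769 and 59.4, while Eno1 was at 30386 and 39336. Their sums were 36155 and 39396, a ratio of 1.09. Hmga1b was at 1279 and 7.95 and Hmga1 at 1834 and 3679, with sums of 3113 and 3687. Eif3j2 was at 1562 and 48.3, and together with Eif3j1 it gave 2473 and 2989. For these 3 pairs the difference of the single gene was thus many times that of the pair. Rpl26 and Kpna2 (91.8 and 4204) each have 2 copies, Cldn34c1 also 2, and Rpl29 has 18. None of these was listed as an annotated gene, so no sum was formed. Whether any predicted gene is a copy of them was not tested. The rows of Tcfl5, Cass4, Zfp729b, Cdkn1c, Ldhb, Fabp3, Itga8, Gdf5, Sfrp2, Igf2bp3, H2-T10, Ifi203, Ifit3b, Oas1a, H2bc12 and Pdzd4 also share at least 200 near-identical bases with another transcript. Summed with Oas1g, Oas1a gave 141 and 60.4. Ifit3b with Ifit3 gave 256 and 163, a log2 ratio of -0.65, which is under 2-fold. Tcfl5 shared 234 bases with Col9a3, a collagen gene that was at 89.5 and 89.8. Their sum, 273 and 96.7, thus mixes 2 different genes and gives no measure of Tcfl5. H2bc12 with its 8 listed copies gave 454 and 672, a ratio of 1.48, which is under 2-fold. Predicted genes were not searched for copies. Of the 12623 annotated genes measured, 2156 shared such a stretch with another gene's transcript. So did 74 of the 556 annotated genes that were higher and 44 of the 229 that were lower. The search did not tell copies from different genes whose transcripts overlap, such as Cdk4 and Tspan31. These are therefore not counts of copies alone.

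**Figure D5:**
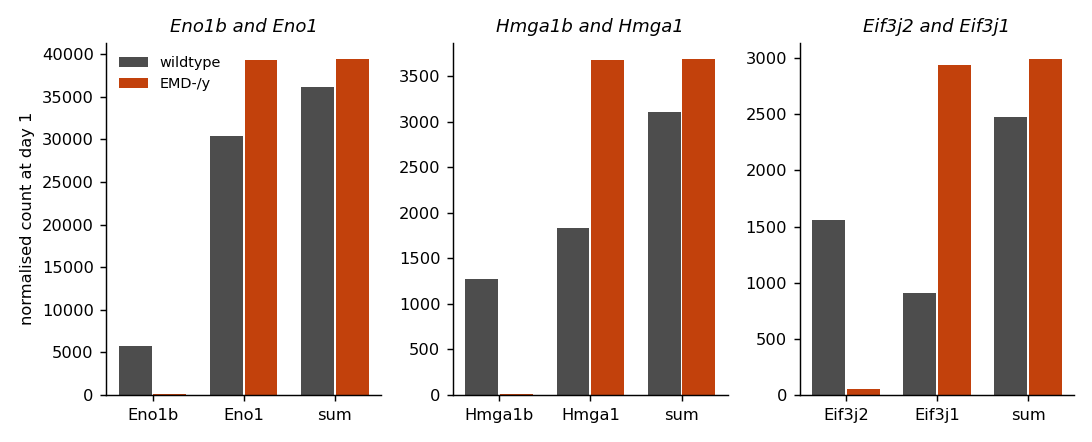
Normalised counts at day 1 in wildtype and EMD-/y for 3 genes, their near-identical copies and the sum of each pair, 1 bar per group with the axis starting at 0. Eno1b, Hmga1b and Eif3j2 were lower in EMD-/y, but the sums differed by 1.09-fold, 1.18-fold and 1.21-fold.

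The same lines at days 0 and 2 share no library with day 1. At day 0, 664 of 13370 genes (4.97%) were at least 2-fold higher in EMD-/y and 509 (3.81%) lower, together 8.77%. At day 2, 628 of 13163 (4.77%) were higher and 376 (2.86%) lower, together 7.63%. Of the 618 genes higher at day 1, 368 were also higher at day 0, which is 59.5% of the day 1 genes and 55.4% of the day 0 genes, and 362 were higher at day 2 (58.6% and 57.6%). Of the 376 lower genes, 258 were lower at day 0 (68.6% and 50.7%) and 237 at day 2 (63.0% of each list). On all 3 days 258 genes were higher and 184 lower. None of the 618 higher genes was lower by 2-fold on another day, and 2 of the 376 lower genes, Pttg1 and Gm44504, were higher at day 2.

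A small share of genes stood apart at day 1 while lying within 1.5-fold at days 0 and 2, namely 35 of the higher and 21 of the lower genes. Those named here, other than Slc7a11, were chosen after their values were seen. Ctrb1, a chymotrypsinogen, was at 1077 and 475 normalised counts at day 1 against 68.6 and 84.1 at day 0 and 1484 and 1590 at day 2. Socs2, a feedback inhibitor of cytokine receptors, was at 849 and 416 at day 1, with log2 ratios of -0.21 and -0.49 on the flanking days. Krt13, a keratin, was at 70.7 and 177, and Gdf1, a TGF-beta family ligand, at 82.5 and 170. Whether their ratios differ between days was not tested, since no spread between libraries was available.

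The transduced lines were +EMD, with wildtype emerin, and S54F, del95-99 and Q133H, each with the emerin mutant of that name. At day 1 each was compared with the same wildtype libraries, so only values side by side are given. Emd was listed at 1.88 normalised counts in +EMD, 2.07 in S54F, 1.34 in del95-99 and 1.09 in Q133H, so this row gives no measure of the introduced emerin. Pax7 was at 1953 in +EMD, 949 in S54F, 1591 in del95-99 and 6.54 in Q133H. Myh2 was at 3.04, 22.6, 1.55 and 2.53 in that order, and Cdkn1c at 18636, 19682, 2025 and 296. Actc1 was at 39536, 61015, 7543 and 1916. Steap1 was at 325, 533, 470 and 768, and Rpl26 at 6026, 7146, 7063 and 8686. For Steap1, Rpl26, Myh2 and Emd all 4 transduced lines thus lay on the EMD-/y side of wildtype. All of them were made from the EMD-/y line, so they are not independent of it. Gapdh was at 7321, 8828, 6280 and 8865, nearer the wildtype value of 6221 than the EMD-/y value of 36064.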

How the data were processed

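RNA was sequenced from H2K progenitors of 6 lines on 3 days, in 3 labelled replicates per group. The authors' provider filtered reads with SOAPnuke, mapped them to mm10 with HISAT2 and compared pairs of groups with DESeq2. The deposited signal values, named expression, are normalised counts, 1 per gene and group and table. In the day 1 table all 808 genes averaging under 0.2 over both groups lay on 1 of 6 steps, that of a single read in each of the 6 libraries, and the 444 genes between 0.25 and 0.40 on sums of 2 steps (tolerance 2e-06). The values are thus a mean over the libraries split by a fitted ratio, which was at most 1.09-fold for a single read. The authors' fold changes, p-values and q-values, which the tables also hold, were not used, and 16 tables of other comparisons were left out. There are 0 columns of values per sample, so depth, spread and counting intervals per library are unknown.

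Log2 ratios used a pseudocount of 1. A gene counted when the higher group reached 10 and the ratio 2-fold. Genes named are Emd, the 15 largest ratios each way among annotated genes reaching 100, and members of 45 gene lists past 2-fold, or the most abundant where none was. Members and lists were chosen with earlier results of these data known. Of 16140 annotated gene IDs, 16115 matched RefSeq on GRCm38.p6; 2 list symbols did not. Copies were sought with minimap2 2.31 between the longest GENCODE transcripts (at least 200 bases at 97% identity). Overlapping transcripts of different genes were not removed. Scripts ran in Python 3.11.15. The ratio and threshold were tested on simulated plain means of a group. The values used here are split by a fitted ratio instead, so that test does not cover ratios pulled towards 1.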

Additional observations from a re-analysis of the deposited data

How the results depend on the processing

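Counts of genes at least 2-fold different at day 1 (994, with 618 higher and 376 lower, 442 of them alike on all 3 days) moved most with the filter and the threshold. A filter of 100 gave 447 (266 higher and 181 lower, 197 alike on all days), a threshold of 1.5-fold 2002 (1233, 769 and 870) and a threshold of 4-fold 309 (149, 160 and 174). Without predicted genes 229 were lower and 556 higher, so that the higher share went from 62.2% to 70.8%. Counts of higher and lower genes stayed within 1.5 times under other pseudocounts, no filter, both rescalings and values from the lines' own time-course tables. The same held without genes that share a near-identical stretch with another gene, a setting chosen after seeing the data. The count alike on all 3 days was not formed from the time-course tables. No 2-fold gene named from the lists or among the largest turned its direction under other pseudocounts, scalings or source tables, but 11 went under 2-fold. A pseudocount of 5 gave log2 ratios of 0.81 for Myf6, 0.89 for Id4, 0.90 for Col13a1, 0.92 for Flt1, 0.95 for H2bc12, -0.84 for Dpt, -0.93 for Cxcl9, -0.96 for Ccl5 and -0.96 for Ifit3b, and the time-course tables gave 0.99 for Igfbp4 and -0.92 for Col23a1. With the same groups' values from other tables, 977 of 978 genes were 2-fold in the same direction and 966 had a larger ratio. Low genes moved: at a pseudocount of 5 the Emd log2 ratio was -7.87.

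No paired analysis was possible because the columns are 1 value per group and carry no replicate numbers, and for the same reason no replicate was left out. Depth limits the ratios of scarce transcripts, which tend to be too small.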

Other observations

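Chromosome medians lay close to each other at day 1. Median log2 ratios by chromosome lay between -0.10 on chromosome 3, over 614 genes, and 0.077 on chromosome 8, over 687 genes. Chromosome 3 stood at -0.144 at day 0 and -0.096 at day 2, and chromosome 16, over 404 genes, at 0.067, 0.077 and 0.062 on days 1, 0 and 2. On the X chromosome, 34 of 425 genes were at least 2-fold higher and 7 lower, against 4.61% and 2.81% of all genes. The 9.65% in all was the highest share of any autosome or the X chromosome. Autosomes ran from 4.26% on chromosome 17 to 8.91% on chromosome 1. Genes with no chromosome given, 785 in number, stood at 27.3%, which raises the share over all genes.

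Genes around Emd on the X chromosome were measured to see whether the difference reached beyond the deleted gene. Of 37 neighbours, 2 were higher, the ribosomal protein gene Rpl10 and Pdzd4 (59.3 and 134 normalised counts), and 0 lower, with a median of -0.07. Over all genes 4.61% were higher.

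The most abundant transcripts per kilobase were largely the same genes in both lines. Eef1a1, a translation elongation factor, led with 79869 in wildtype and 69701 in EMD-/y, and Tmsb10, an actin-sequestering peptide, followed with 60389 and 62100. Gapdh, at 24975 per kilobase, was fifteenth in EMD-/y. Myog, at 23743, was fifteenth in wildtype.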
